A study of Rattus norvegicus with 9 samples.

Results

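The report concerns 40 genes of the cell cycle and DNA replication, listed by symbol as S-phase and mitosis genes, in rat liver. The listed genes that were rows of both deposited tables were taken, which gave 39 of 15565 genes in all, 19 of S phase and 20 of mitosis. Ccnb2 was not analysed here. Livers came from male SD rats. The normal diet group was fed a normal diet, the high-fat diet group had 8 weeks of high-fat feeding to induce non-alcoholic fatty liver, and the SCL-treated group was given Smilax china L. (SCL), a medicinal plant, with its liver labelled as fatty liver too. Each group had 3 libraries of total RNA. The labels give no dose, duration or diet for the SCL-treated group, and no age. They do not state that each library is from its own animal, and the p-values then reflect only the spread among these libraries, which may be technical.

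Cells that divide pass through S phase, in which DNA is copied, and then through mitosis, in which the copies are parted. E2F factors switch on the S-phase genes. The mitotic genes are switched on later, through promoters that often carry CCAAT boxes and a CHR element. That element is bound by the DREAM complex and by B-Myb with Foxm1. Most hepatocytes of an adult liver rest outside the cycle and can re-enter it after injury or tissue loss, so transcripts of these genes are scarce in resting liver.

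The promoters show how the members divide by these letters. Of the 39 genes, 29 had a window in the RefSeq promoter set (rat build GRCr8, 250 bases before to 50 bases after the start), 14 of S phase and 15 of mitosis. Motifs were searched on both strands. An E2F site was taken as TTTCCCGC, TTTGGCGC, TTTCGCGC or TTTGCCGC and was found in 7 of 14 S-phase windows and 1 of 15 mitotic windows (6.67%), against 3.84% of the 10100 windows of the genes tested. The CHR element, TTTGAA, was found in 1 S-phase window (7.14%) and 9 of 15 mitotic windows, against 11.9%. CCAAT was found in 64.3% of S-phase windows and 80.0% of mitotic windows, against 37.3%. CHR and CCAAT stood together in 8 mitotic windows (53.3%) and in no S-phase window, against 4.84%. The member windows include those of untested members. Over all 33469 windows the share was 2.14% for E2F, 18.3% for CHR, 37.5% for CCAAT and 7.41% for CHR with CCAAT. A match is a description of letters, not a site shown to be bound. The windows of the 3 members that later show the lowest p-values on the high-fat diet follow, with matches in capitals, each written 5′ to 3′ on the gene's strand. In the Mki67 window a CHR match runs into a CCAAT match on the other strand.
Mki67 (GRCr8 chr1:199952544-199952843, minus strand): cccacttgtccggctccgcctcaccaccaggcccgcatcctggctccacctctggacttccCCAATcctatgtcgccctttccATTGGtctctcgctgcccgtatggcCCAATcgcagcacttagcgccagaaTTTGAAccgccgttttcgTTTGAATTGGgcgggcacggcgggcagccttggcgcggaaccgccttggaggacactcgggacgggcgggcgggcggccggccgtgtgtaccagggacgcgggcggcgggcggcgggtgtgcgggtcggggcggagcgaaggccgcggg
Top2a (GRCr8 chr10:84473044-84473343, minus strand): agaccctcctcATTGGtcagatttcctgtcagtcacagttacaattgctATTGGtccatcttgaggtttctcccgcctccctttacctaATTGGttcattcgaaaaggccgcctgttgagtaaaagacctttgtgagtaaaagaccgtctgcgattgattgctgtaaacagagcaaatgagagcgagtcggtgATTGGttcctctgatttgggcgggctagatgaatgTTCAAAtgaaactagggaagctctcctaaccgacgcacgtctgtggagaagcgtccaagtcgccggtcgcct
Mcm6 (GRCr8 chr13:42404303-42404602, minus strand): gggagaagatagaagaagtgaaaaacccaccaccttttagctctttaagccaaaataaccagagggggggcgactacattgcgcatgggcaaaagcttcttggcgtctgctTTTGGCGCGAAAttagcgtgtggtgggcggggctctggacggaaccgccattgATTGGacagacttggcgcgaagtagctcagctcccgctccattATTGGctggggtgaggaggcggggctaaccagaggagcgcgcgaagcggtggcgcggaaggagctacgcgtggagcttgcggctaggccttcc
For the other S-phase members with an E2F site, the match nearest the start follows in a 30-base stretch, with the site in capitals. Mcm5 and Mcm7 hold further matches more than 200 bases before the start. Cdt1 and Mcm3 each hold a further match after the start, at positions 33 and 14, outside the stretches.
Cdt1 (GRCr8 chr19:67529245-67529274, plus strand): ccgcgaaaattGCGCGAAAtccgcgggaag
Mcm2 (GRCr8 chr4:122918086-122918115, minus strand): acccggtTTTCGCGCGAAAacccgtggcag
Mcm3 (GRCr8 chr9:30733734-30733763, minus strand): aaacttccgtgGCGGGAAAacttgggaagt
Mcm5 (GRCr8 chr19:13488794-13488823, plus strand): ccaggttggttTTTCCCGCgaaagtcggct
Mcm7 (GRCr8 chr12:22163212-22163241, minus strand): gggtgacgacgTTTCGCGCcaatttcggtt
Tyms (GRCr8 chr9:120776102-120776131, minus strand): aaggtgcgggtTTTGGCGCcgactacactg
For the other mitotic members with a CHR element, the nearest match follows in a 28-base stretch, with the element in capitals, and Cdk1 holds a second one 72 bases before the start.
Birc5 (GRCr8 chr10:103572127-103572154, plus strand): cgcccgcgggtTTTGAAttagggattgt
Bub1b (GRCr8 chr3:126017052-126017079, plus strand): gagacgttaaaTTTGAAagttggcggcc
Cdc20 (GRCr8 chr5:137255834-137255861, minus strand): gacagttgggtTTTGAAggagccaatga
Cdk1 (GRCr8 chr20:19265266-19265293, plus strand): accgcggtgagTTTGAAactgctggcac
Nusap1 (GRCr8 chr3:127057293-127057320, plus strand): gtggcgccagtTTTGAAcggtgctgttt
Plk1 (GRCr8 chr1:186147653-186147680, plus strand): ccagcgctgcgTTTGAAttcggggagga
Prc1 (GRCr8 chr1:143659452-143659479, plus strand): ctccggctcggTTTGAAttccgcggggt
The Aurka window held no match to any of these motifs, which says only that these letters are not in it.

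Library totals ran from 12413774 to 15521648 reads, and reads of the 13 mitochondrial transcripts took 3.85% to 49.0% of them. They passed 40% in high-fat diet replicate 3 (44.1%) and SCL-treated replicate 2 (49.0%), so results are also given without these 2 libraries. SCL-treated replicate 2 had 2326 genes (14.9%) at 0, against 7.43% to 13.0% in the other libraries, and 8 of the 20 mitotic members were at 0 there (Ccna2, Plk1, Birc5, Bub1b, Cdc20, Ube2c, Nusap1 and Prc1). A count of 0 in it allows up to 3 reads, or 0.291 CPM (reads scaled to a common library size, after TMM). Such intervals cover counting error only. The hepatocyte markers summed to 158768 to 196615 CPM on the normal diet, 74225 to 155148 on the high-fat diet and 74848 to 238577 after SCL, so the tissue carried its defining transcripts in every group.

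Per transcript length, the most abundant S-phase genes stood above the most abundant mitotic genes. In FPKM (fragments scaled to transcript length and library size) on the normal diet, Pcna, the sliding clamp of DNA polymerase, had a mean level of 13.4, Cdk2, the S-phase kinase, 6.04, Mcm7, a subunit of the MCM helicase that opens DNA, 4.97, and Rrm1, the large subunit of ribonucleotide reductase, 3.21. Rrm2, the small subunit that is made in S phase, had no read in any normal diet library and 1 to 3 reads in 3 of the other 6. Among mitotic genes the normal diet mean was 2.68 FPKM for Aurka, the centrosomal kinase, 1.21 for Birc5 (survivin, of the chromosomal passenger complex), 0.148 for Cdk1, the mitotic kinase, and 0.120 for Mki67, the antigen Ki-67. The filter on low counts kept 28 members, 15 of S phase and 13 of mitosis. It dropped Ccne1, Cdc6, Cdc45 and Rrm2 from the first list, and Ccnb1, Cdk1, Plk1, Aurkb, Bub1b, Ube2c and Nusap1 from the second, so the kinases Cdk1, Plk1, Aurkb and Bub1b were too low to test. Ccna2 (cyclin A2) passed only through the high-fat diet libraries. Prc1 was over the filter's cutoff in 3 high-fat, 1 SCL-treated and 0 normal diet libraries, so it too needed the high-fat group to pass.

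Neither list reached a called change in any comparison. The summed level of the 19 S-phase genes was 76.8, 76.4 and 76.0 CPM in the normal diet libraries, 89.4, 88.4 and 86.7 on the high-fat diet and 88.3, 91.0 and 89.8 after SCL. Every high-fat and SCL-treated library lay above every normal diet library, by a narrow margin. With library totals alone as the scaling the ranges overlapped (75.9 to 87.3, 77.7 to 110.2 and 75.6 to 90.7 CPM), so that order depends on the scaling. Pcna, Mcm7, Cdk2 and Rrm1 made 55.6% to 66.8% of the sum. These 4 overlapped between the diets (48.4 to 51.0 and 49.7 to 56.2 CPM) and had 53.5 to 57.0 CPM after SCL. The other 15 S-phase genes summed to 25.4 to 28.4 CPM on the normal diet, 32.2 to 39.7 on the high-fat diet and 31.2 to 37.5 after SCL. The 20 mitotic genes summed to 17.1, 17.3 and 24.8 CPM on the normal diet, 29.3, 56.9 and 30.3 with the high-fat diet and 26.3, 34.1 and 28.9 after SCL. Here too no high-fat or SCL-treated library fell within the normal diet range, and high-fat diet replicate 2 stood far above the rest. With library totals alone that order held (18.7 to 24.8, 27.2 to 54.0 and 25.7 to 28.3 CPM). In the deposited FPKM it did not. The normal diet sums were 6.59 to 9.28 FPKM, and high-fat diet replicate 3 (9.13) and SCL-treated replicate 2 (9.24) fell within them. In SCL-treated libraries 1 and 2, Aurka, Kif20a, Mki67 and Cdc25b made 65.1% and 64.4% of the mitotic sum, against 37.3% to 55.7% in the other 7. Without these 4 genes, the other 16 summed to 9.44, 9.79 and 10.99 CPM on the normal diet. The SCL-treated libraries then had 9.19, 12.13 and 13.78 CPM, so they overlapped the normal diet libraries. The high-fat libraries had 18.4, 31.96 and 14.07 CPM and stayed above them.

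**Figure D1:**
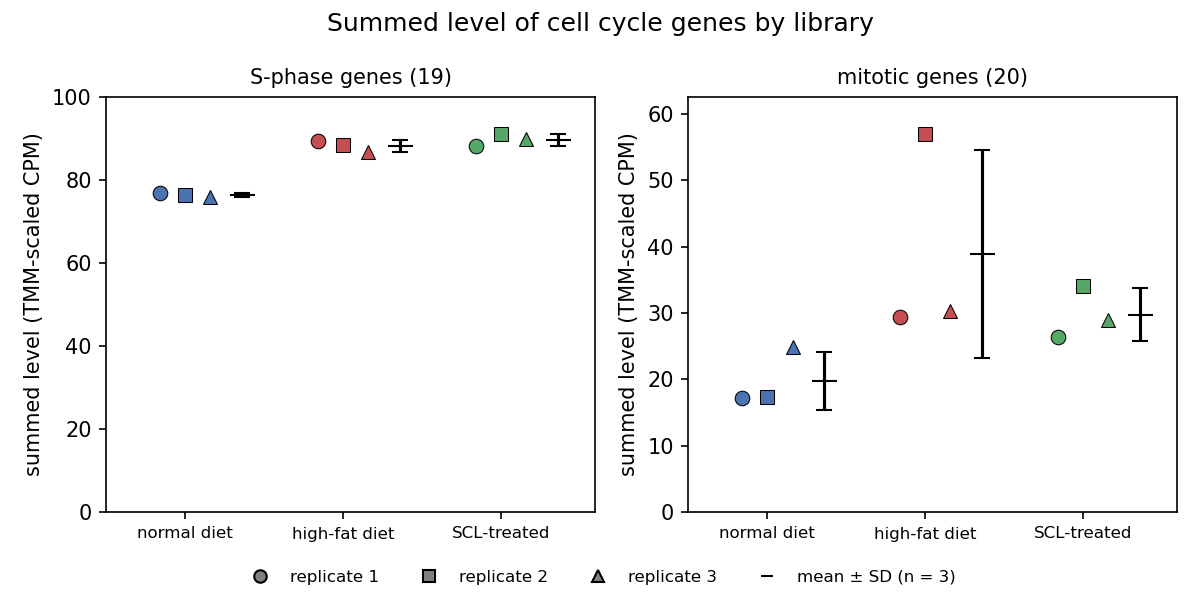
Summed TMM-scaled CPM of the 19 S-phase genes (left) and 20 mitotic genes (right) in each library, with the mean and SD of 3 libraries. S-phase sums of the high-fat and SCL-treated libraries lie at 86.7 CPM or more against 76.8 or less on the normal diet, and the mitotic sum of high-fat diet replicate 2 reaches 56.9.

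The high-fat diet was compared with the normal diet to ask how diet-induced fatty liver changes transcript levels. Mitotic genes had mostly higher values on the high-fat diet, and S-phase genes less evenly so, but no member passed the test. Of the 13 mitotic genes tested, 12 had a log2 fold change above 0, with a median of 0.89, and of the 15 S-phase genes 10 did, with a median of 0.47. Over all 12041 genes tested the median was 0.03 and 52.8% were above 0. Ccna2, kept only for its high-fat values, is 1 of the 12, and without it 11 of 12 mitotic genes were above 0, with a median of 0.80. Prc1, which also needed its high-fat libraries to pass the filter, is still among those 11. With no filter, 19 of all 20 mitotic genes were above 0 (median 1.32) and 13 of 19 S-phase genes (median 0.44), with all genes at 0.06. edgeR's quasi-likelihood test called 0 members at an adjusted p under 0.05, where it called 0.0083% of all genes, and the lowest adjusted p among members was 0.91. DESeq2 and limma-voom called 0 members as well. At an unadjusted p under 0.05 stood 1 S-phase gene and 2 mitotic genes, 3 of 28 members, where 4.32% of all genes did. DESeq2 put 6 members there, where it put 5.90% of all genes.

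Mki67, whose protein coats mitotic chromosomes and serves as the usual stain for cycling cells, had 1.28, 0.634 and 1.45 CPM on the normal diet, 1.73, 4.48 and 2.43 with the high-fat diet and 1.29, 2.81 and 1.93 after SCL. The high-fat libraries lay above all normal diet libraries, with a log2 fold change of 1.36 (SE 0.55, unadjusted p = 0.033, edgeR adjusted p = 0.91). Top2a, the topoisomerase that untangles sister chromatids, had 0.731, 0.576 and 1.30 CPM, then 1.88, 4.40 and 2.08, then 0.544, 2.62 and 1.40. Its groups likewise did not overlap between the diets (1.68, SE 0.66, unadjusted p = 0.028, edgeR adjusted p = 0.91), and it rested on 10 to 18 reads per normal diet library.

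Mcm6, another subunit of the MCM helicase, was the S-phase gene with the lowest p. It had 1.52, 0.979 and 0.795 CPM on the normal diet, 2.82, 2.12 and 2.69 with the high-fat diet and 1.56, 1.46 and 1.75 after SCL. The diets did not overlap (1.20, SE 0.45, unadjusted p = 0.023, edgeR adjusted p = 0.91). Tk1, the thymidine kinase of the salvage pathway, had 4.75, 4.55 and 4.70 CPM, then 7.95, 8.56 and 5.99, then 3.95, 5.63 and 6.76. The lowest high-fat value again lay above the highest normal diet value (0.68, SE 0.32, unadjusted p = 0.055). Tyms, the thymidylate synthase, and Mcm7 had log2 fold changes of 0.73 (SE 0.44) and 0.44 (SE 0.28), and their groups overlapped. For the other subunits of the helicase the log2 fold change was -0.07 for Mcm2, 0.47 for Mcm3, -0.45 for Mcm4 and 0.59 for Mcm5, each within about 1 SE of 0.

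Foxm1, the transcription factor of mitotic genes, had 0.548, 0.749 and 1.01 CPM on the normal diet, 1.36, 2.51 and 3.13 with the high-fat diet and 0.544, 3.49 and 0.790 after SCL. The diets did not overlap (1.59, SE 0.73, unadjusted p = 0.053), while the SCL-treated libraries covered both. Prc1, which bundles the microtubules of the spindle midzone, had 0.426, 0.115 and 0.506 CPM, then 1.05, 1.57 and 1.22, then 0.340, 0 and 0.877 (1.86, SE 0.93, unadjusted p = 0.071). Counted over the 39 members without a filter, the high-fat libraries lay wholly above the normal diet libraries for 2 S-phase genes (Mcm6 and Tk1) and 6 mitotic genes (Mki67, Top2a, Ccna2, Foxm1, Plk1 and Prc1), where 5.37% of all 15565 genes did. They lay wholly below for no member, where 4.61% of all genes did.

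The members did not share this pattern evenly. Birc5 had a log2 fold change of -0.36 (SE 1.01), Kif11, the bipolar spindle motor, of 0.06 (SE 0.65) and Pcna of -0.15 (SE 0.32). Of the untested genes, Cdk1 had 2, 2 and 5 reads on the normal diet and 9, 26 and 4 on the high-fat diet, and Ube2c, the ubiquitin-conjugating enzyme of the anaphase-promoting complex, had 0, 5 and 3, then 7, 42 and 3. In both, high-fat diet replicate 2 alone held most of the high-fat reads.

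**Figure D2:**
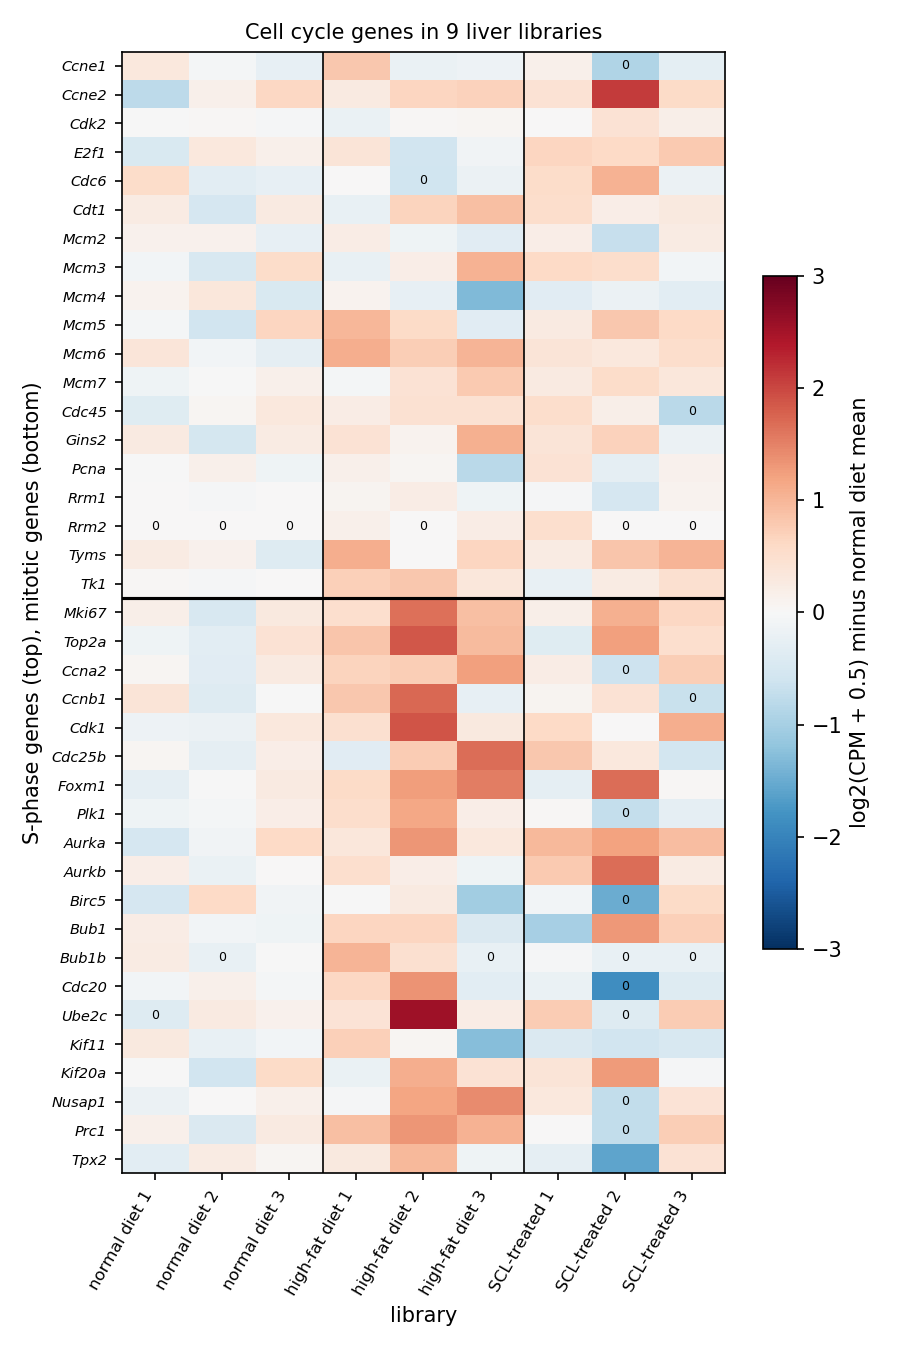
Difference of log2(CPM + 0.5) from the normal diet mean for the 39 genes (rows, S phase above the line, mitosis below) in 9 libraries (columns), with 0 marking a library without a read. Red is concentrated in the mitotic rows of high-fat diet replicate 2, which was the highest library for 10 of the 20 mitotic genes, and the zeros gather in SCL-treated replicate 2.

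High-fat diet replicate 2 was the highest of the 9 libraries for 10 of 20 mitotic genes and 2 of 19 S-phase genes (10.5%), against 9.93% of all genes. Without it the median log2 fold change of mitotic genes between the diets was 0.32, with 12 of 13 above 0, and no mitotic gene had an unadjusted p under 0.05. Mki67 then stood at 0.87 (unadjusted p = 0.18) and Top2a at 1.18 (unadjusted p = 0.13), whereas Mcm6 stood at 1.30 (unadjusted p = 0.033). The mitotic median was 1.57 without normal diet replicate 3, and 1.58 when high-fat diet replicate 1 was left out. The S-phase median was 0.24 without normal diet replicate 2, and 0.23 when high-fat diet replicate 3 was left out. Without the 2 libraries over 40% mitochondrial reads, which leaves high-fat diet replicates 1 and 2, all 16 mitotic genes then tested had log2 fold changes above 0, with a median of 1.29. Of these, Ccnb1 and Plk1 passed the filter only through the high-fat libraries, and the other 14 had a median of 1.09. In that fit 7 of the 16 (Top2a, Mki67, Foxm1, Prc1, Cdc20, Cdk1 and Plk1) had an unadjusted p under 0.05, where 4.0% of all genes did. Among S-phase genes 2 of 16 did (Mcm6 and Tk1). Without Ccnb1 and Plk1 the mitotic count was 6 of 14. Prc1 and Cdk1 are still among those 6 and Ccna2 among the 14, though each also needed a high-fat library to pass the filter. No member had an adjusted p under 0.05 in edgeR. limma-voom with quality weights gave 4 S-phase and 7 mitotic genes an unadjusted p under 0.05, but 30.0% of all genes in the same fit. In the authors' deposited table, which writes normal diet over high-fat diet, Top2a had a log2 fold change of -1.68 and the lowest adjusted p of the members, 0.389, and 0 members were under 0.05, where 0.333% of all its genes were.

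Markers of the other cell types of liver and blood were summed in the same libraries. Kupffer cell and macrophage markers summed to 550 to 733 CPM on the normal diet and 271 to 597 on the high-fat diet, with 10 of 10 genes at a log2 fold change below 0. Hepatocyte markers, summed above, were below 0 for 10 of 10 genes too (median -0.53). Above 0 stood 9 of 10 tested T and NK cell markers (median 0.55), 5 of 5 of B and plasma cells, 3 of 3 of neutrophils and 4 of 5 of erythroid cells, and edgeR called 0 of them. Markers of B and plasma cells summed to 5.07 to 15.6 and 9.20 to 26.1 CPM, those of T and NK cells to 38.3 to 38.7 and 27.8 to 46.3 (Cd4, a large part of that sum, had a mean of 20.2 and 8.56), and those of erythroid cells to 134 to 421 and 234 to 1207. Those of neutrophils summed to 5.36 to 8.24 and 1.46 to 31.7 CPM, with Camp at 0 on the normal diet, of cholangiocytes to 17.9 to 30.1 and 12.7 to 40.9, of stellate cells to 315 to 580 and 218 to 379, and of sinusoidal endothelium to 245 to 306 and 170 to 243. Their part in the cell cycle values was not tested. In bulk liver, fewer cells of a type and less RNA per cell cannot be told apart.

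SCL-treated livers were compared with high-fat diet livers to ask how the plant changes transcript levels in fatty liver. Mitotic genes had mostly lower values after SCL and S-phase genes did not lean either way, and again no member passed the test. Of the mitotic genes 9 of 13 had a log2 fold change below 0, with a median of -0.74, and of the S-phase genes 8 of 15 were above 0, with a median of 0.04. The median over all genes was -0.03, and 46.7% of them were above 0. The mitotic median was -0.47 without high-fat diet replicate 2 and -0.64 (8 of 12 below 0) without Ccna2, and with no filter it was -0.84 over all 20. Prc1, which needed the high-fat libraries to pass the filter, is still among those 8. With library totals alone the median of all genes moved to -0.19, the S-phase median to -0.14 and the mitotic median to -0.76. edgeR called 0 members and 0.0% of all genes, with a lowest adjusted p of 1.00 among members. No member had an unadjusted p under 0.05, where 1.95% of all genes did, and DESeq2 gave 1 (2.80% of all genes) and limma-voom 3 (7.69%) such members with 0 called. These comparisons share the high-fat libraries with the one before, so a high value in a high-fat library moves both in opposite directions.

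Cdc20, the activator of the anaphase-promoting complex, had 1.22, 1.5 and 1.23 CPM on the normal diet, 2.30, 4.08 and 0.956 with the high-fat diet and 1.09, 0 and 0.877 after SCL. Its log2 fold change from the high-fat diet was -1.85 (SE 0.88, unadjusted p = 0.060), with high-fat diet replicate 3 inside the SCL-treated range. For Prc1 all SCL-treated libraries lay below the high-fat libraries (-1.62, SE 0.93, unadjusted p = 0.11). Top2a stood at -0.88 (SE 0.65), with overlapping groups, and at -0.39 without high-fat diet replicate 2. Ccna2 stood at -1.19 (SE 0.93), and only its high-fat libraries were over the filter's cutoff.

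E2f1, a transcription factor that switches on S-phase genes, had the largest positive value of the 15 S-phase genes tested. It had 0.305, 0.864 and 0.723 CPM on the normal diet, 0.941, 0.236 and 0.521 with the high-fat diet and 1.22, 1.16 and 1.40 after SCL. The SCL-treated libraries lay above both other groups, on 12 to 18 reads each (1.12, SE 0.67, unadjusted p = 0.12). Mcm6 lay below the high-fat libraries in all 3 SCL-treated libraries (-0.68, SE 0.45, unadjusted p = 0.16) and Tk1 stood at -0.47 (SE 0.32). Ccne2, a cyclin E that starts S phase with Cdk2, stood at 0.88 (SE 0.72), on 51 reads in SCL-treated replicate 2 against 16 to 20 in the other SCL-treated and high-fat libraries, and at -0.05 without that library.

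Over the 39 members, the SCL-treated libraries lay wholly above the high-fat libraries for 1 S-phase gene (E2f1) and no mitotic gene, where 2.21% of all genes did. They lay wholly below for 1 S-phase gene (Mcm6) and 2 mitotic genes (Plk1 and Prc1), where 2.69% did. Plk1, the polo-like kinase that drives mitotic entry, rested on 13, 17 and 5 reads on the high-fat diet and 5, 0 and 2 after SCL. Without the 2 libraries of high mitochondrial share, 5 of 16 mitotic genes (Ccnb1, Cdc20, Foxm1, Plk1 and Top2a) and no S-phase gene had an unadjusted p under 0.05, where 3.94% of all genes did, and the mitotic median was -0.88. Without Ccnb1 and Plk1, which only the high-fat libraries brought past the filter there, it was 3 of 14 and a median of -0.77. Ccna2, Cdk1 and Prc1, which also needed a high-fat library to pass, are still among the 14. No member had an adjusted p under 0.05 in edgeR, and that fit holds 2 libraries in each of these groups. In the authors' deposited table of this comparison the lowest adjusted p among members was 1.00, with 0.0% of all its genes under 0.05. Between these groups marker sums overlapped for every cell type list, with Kupffer cell and macrophage markers at 253 to 707 CPM, erythroid markers at 362 to 1228 and B and plasma cell markers at a mean of 24.1 ± 13.8 (SD, n = 3) after SCL.

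**Figure D3:**
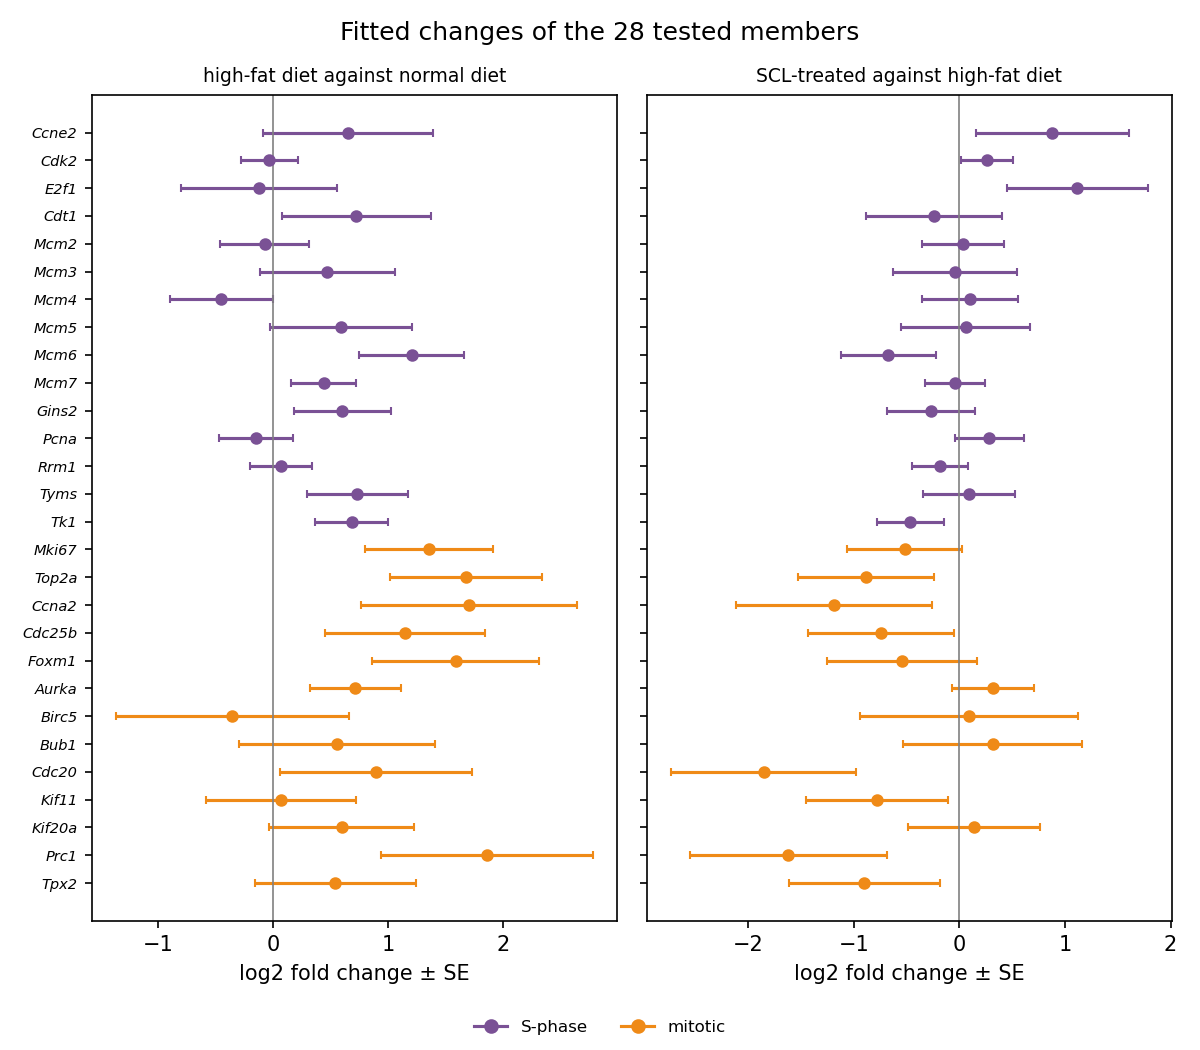
Log2 fold changes with their SE (edgeR) of the 28 members tested, 15 of S phase (purple) and 13 of mitosis (orange), for the high-fat diet against the normal diet (left) and SCL treatment against the high-fat diet (right). Mitotic points lie mostly right of 0 on the left (12 of 13) and left of 0 on the right (9 of 13), and the 2 comparisons share the high-fat libraries.

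SCL-treated livers were also set against the normal diet. Both lists had medians above 0, 0.39 for S phase (12 of 15 above 0) and 0.52 for mitosis (9 of 13), against 0.03 for all genes (51.8% above 0). With library totals alone these medians were 0.15, 0.33 and -0.21. edgeR called 0 members, where it called 0.0083% of all genes, with a lowest adjusted p of 0.66. Only Aurka had an unadjusted p under 0.05, where 6.88% of all genes did, and DESeq2 (9.58% of all genes) and limma-voom (28.1%) each gave 2 such members with 0 called.

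Aurka had 3.84, 5.24 and 8.75 CPM on the normal diet, 7.32, 14.8 and 7.12 with the high-fat diet and 11.6, 13.6 and 11.2 after SCL. Every SCL-treated library lay above every normal diet library (1.03, SE 0.40, unadjusted p = 0.025, edgeR adjusted p = 0.66), and against the high-fat diet the groups overlapped (0.32, SE 0.39). Aurka overlaps the Fam210b gene model and has 3 named pseudogenes, so its count is uncertain. Aurkb, its relative in the chromosomal passenger complex, rested on 4, 1 and 2 reads on the normal diet and 9, 16 and 3 after SCL. Scaled to CPM its groups are barely apart (0.244 at most against 0.263 at least), at the level of a few reads.

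The SCL-treated libraries lay wholly above the normal diet libraries for 2 S-phase genes (E2f1 and Mcm7) and 2 mitotic genes (Aurka and Aurkb), where 6.65% of all genes did. They lay wholly below for no S-phase gene and 2 mitotic genes (Cdc20 and Kif11), where 6.69% did. Kif11 had 2.01, 1.27 and 1.45 CPM on the normal diet and 1.02, 0.873 and 0.965 after SCL. Mcm7 had 10.4, 11.4 and 12.7 CPM and then 13.8, 16.9 and 14.7 (0.39, SE 0.28). Ccne2 stood at 1.53 (SE 0.74, unadjusted p = 0.064) and Tyms at 0.82 (SE 0.44), while Mki67 stood at 0.84 (SE 0.56) and Top2a at 0.79 (SE 0.66), with overlapping groups. The mitotic log2 fold changes ran from -0.96 for Cdc20 to 1.04 for Foxm1, and Foxm1 was at -0.21 without SCL-treated replicate 2. The mitotic median was 0.17 without that library, 0.13 without SCL-treated replicate 3 and 0.23 without normal diet replicate 2, and the S-phase median was 0.21 without normal diet replicate 2. Beside these values, B and plasma cell markers (16.1 CPM or more after SCL, 15.6 or less on the normal diet) and stellate cell markers (228 to 290 against 315 to 580) did not overlap between the groups. Jchain, a large part of the first sum, had a mean of 16.2 against 6.14, and 5 of 5 tested markers were above 0. Col3a1, a large part of the second, had 137 against 247. Of the stellate markers 6 of 8 were below 0, while Acta2 had 17.7 against 7.80. Hepatocyte markers were below 0 for 9 of 10 genes. Of the T and NK cell markers 8 of 10 tested were above 0, with a median of 0.78, and 4 of 11 lay wholly above the normal diet. Their part was not tested.

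**Figure D4:**
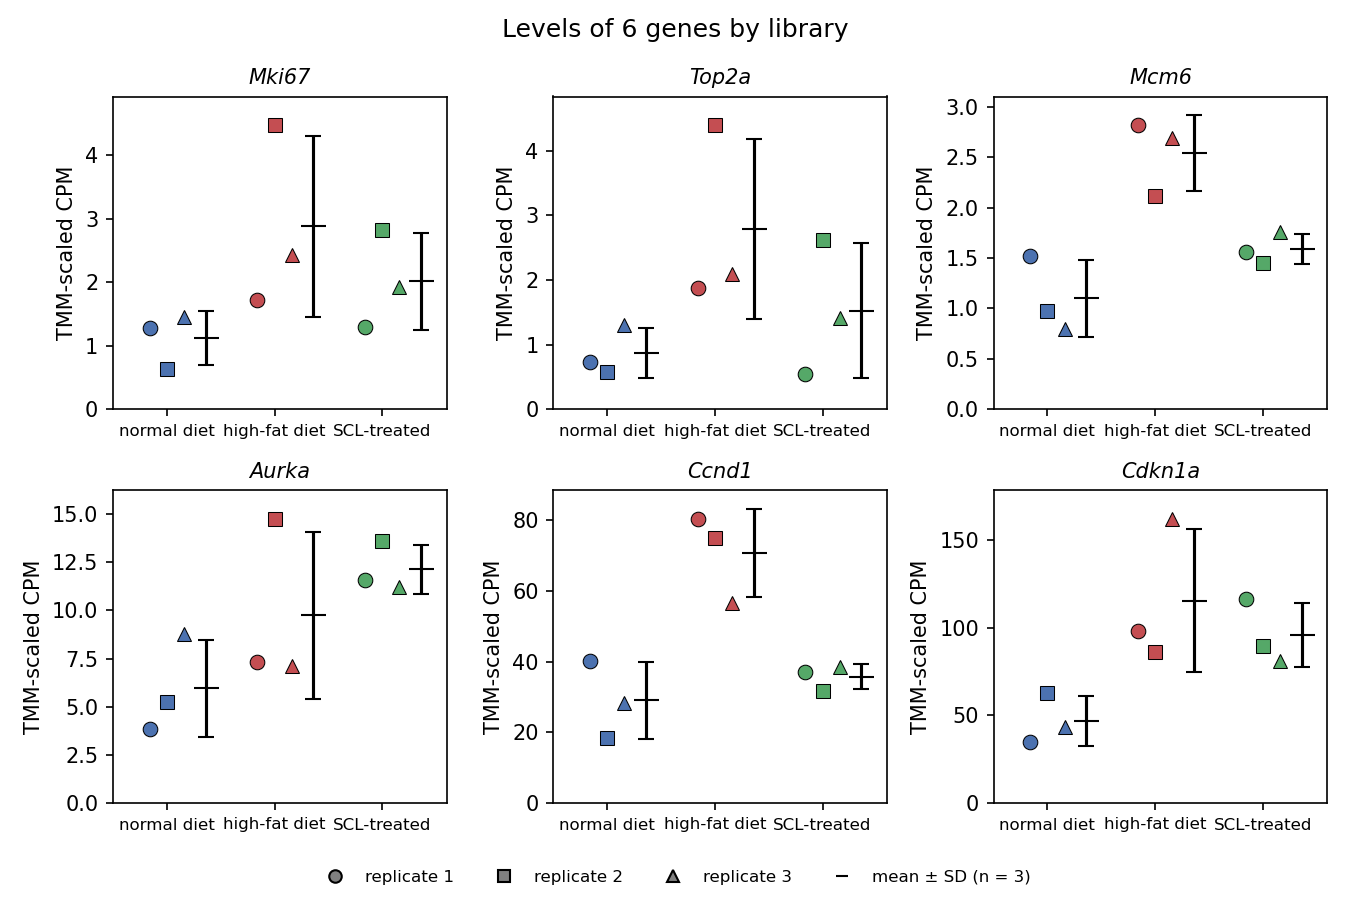
TMM-scaled CPM of Mki67, Top2a, Mcm6, Aurka, Ccnd1 and Cdkn1a in each library, with mean and SD of 3 libraries per group. High-fat diet replicate 2 is the highest point for Mki67 (4.48) and Top2a (4.40), the high-fat libraries lie above the others for Ccnd1, and both fatty liver groups lie above the normal diet for Cdkn1a.

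In the pathway around the members, Ccnd1, Cdkn1a and Ccng1 had lower p-values than any member, as did Mcm10, Rfc4, Spc24 and Mad2l1, given below. Cyclin D1, Ccnd1, which opens the way to S phase through Cdk4 and Cdk6, had 40.2, 18.5 and 28.3 CPM on the normal diet, 80.5, 75.0 and 56.6 with the high-fat diet and 37.0, 31.8 and 38.4 after SCL. The high-fat libraries lay above all others, with a log2 fold change of 1.29 (SE 0.31, unadjusted p = 0.0017, edgeR adjusted p = 0.61) over the normal diet and -0.98 (SE 0.31, unadjusted p = 0.0085, edgeR adjusted p = 1.00) from the high-fat diet to SCL. Of the 20 tested genes of the cyclin D and E2F list, edgeR called 0, and 8 of 20 had a log2 fold change above 0 between the diets (median -0.24). Tfdp1, the dimer partner of E2F, stood at 0.58 (SE 0.26, unadjusted p = 0.049) on the high-fat diet over the normal diet. Mybl2, which encodes B-Myb, stood at 2.08 (SE 0.89, unadjusted p = 0.039) between SCL and the normal diet. E2f3 stood at -0.90 (SE 0.48) between SCL and the high-fat diet.

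Among genes that restrain the cycle, Cdkn1a (p21, an inhibitor of cyclin-dependent kinases) had 35.0, 62.8 and 43.2 CPM on the normal diet, 98.2, 86.1 and 162 with the high-fat diet and 116, 89.7 and 81.3 after SCL. Both fatty liver groups lay above the normal diet, by 1.30 (SE 0.34, unadjusted p = 0.0028, edgeR adjusted p = 0.73) and 1.03 (SE 0.33, unadjusted p = 0.011, edgeR adjusted p = 0.66). Ccng1 (cyclin G1, a target of p53) stood at 0.70 (SE 0.25, unadjusted p = 0.019) and 0.84 (SE 0.25, unadjusted p = 0.0071) in the same comparisons. Of the 19 tested brakes edgeR called 0, and 8 of 19 had a log2 fold change above 0 between the diets (median -0.16). Between SCL and the high-fat diet 15 of 19 were above 0 (median 0.19), where 46.7% of all genes were. The brakes summed to 956 to 989 CPM after SCL, 727 to 882 on the high-fat diet and 738 to 916 on the normal diet. In FPKM these sums overlapped. Btg2 and Tob1, antiproliferative relatives, stood at 0.56 (SE 0.28) and 0.63 (SE 0.32) between SCL and the high-fat diet.

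Of the other replication genes, 36 of 43 were tested and edgeR called 0. On the high-fat diet 28 of 36 had a log2 fold change above 0, and their median was 0.30. Mcm10, which works with the replicative helicase, had 11.1, 10.3 and 13.1 CPM on the high-fat diet and 4.69, 6.60 and 2.46 after SCL (-1.33, SE 0.46, unadjusted p = 0.015, edgeR adjusted p = 1.00), and these groups did not overlap. Dut, which clears dUTP, stood at 0.59 (SE 0.28) on the high-fat diet, Orc4 of the origin complex at 0.79 (SE 0.39), and Rfc4 of the clamp loader at 1.20 (SE 0.45, unadjusted p = 0.022) between SCL and the normal diet.

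Of the other mitosis genes only 18 of 48 were tested and edgeR called 0. On the high-fat diet 11 of 18 had a log2 fold change above 0, with a median of 0.19. Spc24, of the kinetochore's Ndc80 complex, stood at 1.99 (SE 0.72, unadjusted p = 0.020) and Ckap2, a spindle protein, at 1.74 (SE 0.83). Between SCL and the high-fat diet, Ccnf (cyclin F) stood at -0.89 (SE 0.43) and Incenp, of the chromosomal passenger complex, at -1.51 (SE 0.81), with 0 reads in SCL-treated replicate 2. Mad2l1, of the spindle checkpoint, stood at 1.48 (SE 0.52, unadjusted p = 0.016) between SCL and the normal diet, and Ncapd2, a condensin subunit, at -0.64 (SE 0.37).

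Some member counts are uncertain. Whether counting used strand is not given in the sources used here, and 8 members overlap another gene model of the tables (Ccne2, Cdk2, Gins2, Rrm2, Aurka, Kif11, Kif20a and Nusap1). A further source of shared reads are pseudogenes, which 14 members have by name, among them Pcna with 3, Ube2c with 4 and Mki67 with 1.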

How the data were processed

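Total RNA of 9 liver samples was taken up in Trizol and sequenced from NEBNext Ultra libraries, per the labels' protocols. The data are the 2 tables deposited by the authors, which per the file headers hold raw read counts, FPKM values, and the authors' log2 fold changes, p-values and adjusted p-values. The submitters' processing notes name DESeq2 and the mouse build mm9. Which aligner and counter were used is not given in the sources used here, and no coordinate was taken from the tables.

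The deposited counts of the 15565 genes in both tables entered 1 edgeR 4.0.16 fit (R 4.3.3) over the 9 libraries, with group as the only term, TMM scaling and filterByExpr at a minimum count of 10, which kept 12041 genes. P-values of the quasi-likelihood test were adjusted by the Benjamini-Hochberg method over all genes tested and called under 0.05. The SE is the size of the log2 fold change over the root of F. The fit was also run on simulated counts that gave every gene the same spread beyond counting error. They lacked the varying mitochondrial shares of these libraries, so that run does not show how the fit performs on them. Most mitotic members held under 60 reads in every library, which limits their precision.

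The rule named, per comparison and list, called members plus the 4 of lowest p, and for each pathway list the called genes or else the 2 of lowest p. Other members are named for their role or because their groups did not overlap, after their values were seen. The members and lists were chosen with earlier results of these data known. Ccna2, Mki67 and Top2a were counted as mitotic. Gata1, Hba-a1, Mpo, Elane, Pecam1, Cdkn2d and Chek1 were not analysed here. Alternatives were other tools (DESeq2 1.42.0, limma 3.58.1), scalings, filters, covariates, a replicate block and leaving out libraries. Promoter letters come from RefSeq (GRCr8).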

Additional observations from a re-analysis of the deposited data

How the results depend on the processing

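No member was called under any of the 19 alternatives run, and 450 of 455 fold changes of named genes kept their direction. The exceptions were Ccne2 between SCL and the high-fat diet (-0.021 with limma-voom, and -0.047 without SCL-treated replicate 2 to 1.22 without replicate 1) and Foxm1 between SCL and the normal diet (-0.10 with the mitochondrial share as covariate, -0.22 without the 2 libraries over 40%, and -0.21 without SCL-treated replicate 2 to 1.45 without replicate 1). The cause was not tested. The mitotic median between the diets, 0.89, was 1.32 with no filter, 1.23 with limma-voom, 1.29 without the 2 libraries over 40% and 0.32 to 1.58 leaving out 1 library at a time. Between SCL and the normal diet, 0.52, it was 0.16 without those 2 libraries and 0.13 to 0.58 leaving out 1.

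Members at an unadjusted p under 0.05 between the diets numbered 3. They were 6 with DESeq2 (5.90% of all genes), 6 with no filter (4.39%), 7 in the 6 libraries alone (5.40%), 11 with limma-voom (30.0%), 9 without the libraries over 40% (4.0%) and 0 to 8 leaving out 1. Between SCL and the high-fat diet the 0 became 1 with DESeq2, 3 with limma-voom, 1 with the covariate, 5 without those libraries and 0 to 3 leaving out 1. Between SCL and the normal diet the 1 became 2 with DESeq2, no filter, limma-voom or the replicate block, 0 with library totals or without those libraries, and 0 to 2 leaving out 1.

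Over all genes, the calls between the diets (1) were 50 with DESeq2, 26 with limma-voom, 2 with no filter, 0 with library totals, the 6 libraries alone or without the libraries over 40%, and 1 to 4 leaving out 1. Between SCL and the normal diet (1) they were 40 with DESeq2, 152 with limma-voom, 0 with library totals or without those libraries, and 0 to 1 leaving out 1. Between SCL and the high-fat diet (0) DESeq2 called 1. The replicate block gave 1, 0 and 1 calls, with mitotic medians of 0.84, -0.61 and 0.48. Same-numbered libraries deviated together with correlations from -0.35 to 0.60, so the numbers were not taken as pairs. With 3 libraries a group and few reads, a change of a low mitotic gene may be missed.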
